A study of Mus musculus with 2 samples.

Results

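Surfactant protein genes and genes of alveolar type II cell function were compared between wild-type and Rosa26-Foxm1 mouse lung. The members were 10 genes chosen by name: the surfactant protein genes Sftpa1, Sftpb, Sftpc and Sftpd, the lamellar body genes Abca3 and Lamp3, the protease gene Napsa, the lysophospholipid acyltransferase gene Lpcat1, the phosphate transporter gene Slc34a2 and the transcription factor gene Etv5. A probe listed for that gene alone was found for 8 of them, 1 probe each, out of 13840 named genes on the array, and all 8 were above the detection floor on both arrays. Abca3 and Napsa had no probe of their own in the annotation used and have no value here. Each group was 1 array of RNA from the pooled left lobes of the lungs of 3 mice, taken 12 weeks after a carcinogen. The wild-type pool came from FVB/N males, and the labels used here give no sex or strain for the Rosa26-Foxm1 pool, whose mice carried a Foxm1 transgene named for Rosa26, a locus whose promoter is active in most tissues. Both groups had received the carcinogen 3-methylcholanthrene once by intraperitoneal injection at 15 µg per g of body weight, and then butylated hydroxytoluene, a tumour promoter that injures the lung, 6 times at weekly intervals at 150 µg per g first and 200 µg per g afterwards. No group without the carcinogen was analysed here.

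Type II cells are the cuboidal cells of the alveolus that make surfactant, a film of phospholipid and protein that keeps the alveoli from collapsing. The hydrophobic proteins SP-B and SP-C, from Sftpb and Sftpc, are cut from larger precursors and are stored with the lipid in lamellar bodies until secretion. SP-A and SP-D, from Sftpa1 and Sftpd, are soluble collectins, which bind sugars on microbes and act in host defence and in surfactant turnover. Type II cells are also a cell of origin of lung adenomas and adenocarcinomas, and surfactant proteins mark many such tumours.

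Because each genotype has 1 array, replicate spread could not be measured and no test was made, and every difference below is a description of these 2 pools. Values are intensities after quantile normalisation of the 2 arrays, on which the floor, the median of all probes, was 1.00, and differences are log2 values of Rosa26-Foxm1 minus wild type. The error given after ± is the probe SD of the brightness class of the gene, the SD of a single probe's log2 difference estimated from pairs of probes for the same gene. It was 0.31 over 317 genes, 0.38 for the dimmer and 0.23 for the brighter pairs (split at an intensity of 14.0). For 49 genes with pairs brighter than the 95th percentile of all probes it was 0.26, which is not used after ±. The probe SD holds no difference between mice. Over 9518 measured genes, those above the floor on at least 1 array, the median difference was -0.06, with -0.72 at the 5th and 0.69 at the 95th percentile. Of the 8 members, 6 were among the 952 genes brighter than the 95th percentile of all probes, for which the median was -0.10 and the same percentiles were -0.63 and 0.54. The Foxm1 probe was close to the floor on both arrays, at 1.13 in the wild-type pool and 1.23 in the Rosa26-Foxm1 pool, and does not check the genotype. Scgb1a1, the main club cell secretory protein, and Ager, a type I cell receptor, were measured on both arrays, at 2544 and 1767 for Scgb1a1 and 604 and 525 for Ager.

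The members did not move as a group. Sftpa1 and Sftpd, the collectin genes, were higher in Rosa26-Foxm1 lung, and the other 6 members were lower. The median over the 8 members was -0.31 and the mean -0.16, with a range from -0.71 for Etv5 to 0.94 for Sftpd. At the 1.5-fold size 1 member, Sftpd, was higher, 1, Etv5, was lower and 6 lay between. That size was reached by 7.10% of all measured genes on the higher side and 8.46% on the lower side, and by 4.31% and 6.83% of the bright genes. With 8 members, a single gene on each side is close to these shares. In bulk RNA, fewer cells of a type and less RNA per cell cannot be told apart, and this holds for every value below.

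**Figure D1:**
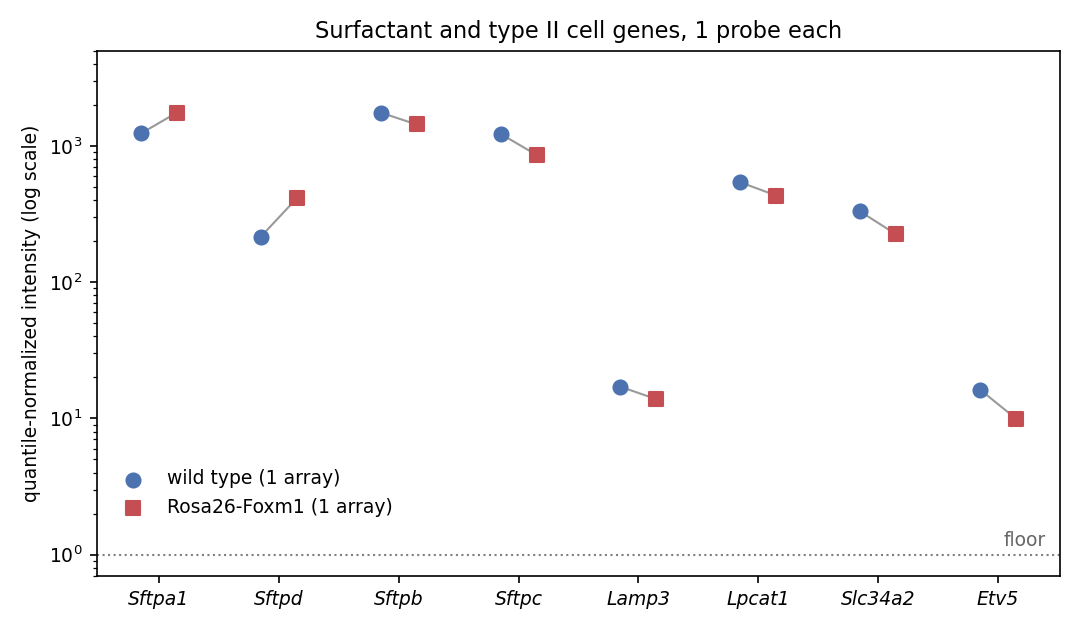
Quantile-normalised intensity (log scale) of the 8 members with a probe, for the wild-type array (blue circles) and the Rosa26-Foxm1 array (red squares), with the floor as a dotted line. Lines join the 2 arrays and slope upward for Sftpa1 and Sftpd, from 1236 to 1757 and from 216 to 413, and downward for the other 6 genes.

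Sftpd, which encodes SP-D, had the largest difference among the members. Its intensity was 216 for the wild-type pool and 413 for the Rosa26-Foxm1 pool, a log2 difference of 0.94 ± 0.23 (probe SD of brighter pairs), or 1.92-fold. The deposited values, without quantile normalisation, were 202 and 452, or 2.23-fold. The Rosa26-Foxm1 array was thus the higher one on both scales. Of 9518 measured genes, 214 (2.25%) were at least as much higher, and 11 of the 952 bright genes (1.16%), Sftpd included. Sftpa1, which encodes SP-A, was 1236 in the wild-type pool and 1757 in the Rosa26-Foxm1 pool, a difference of 0.51 ± 0.23, or 1.42-fold. Among bright genes 55 (5.78%) were at least as far above 0. With loess scaling the Sftpa1 difference was 0.26, close to the probe SD of 0.23.

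The mouse genes of SP-A and SP-D lie close together on chromosome 14. In the RefSeq gene order of GRCm38.p6 only Mbl1, a serum collectin gene, stands between them among protein-coding genes, and its probe was below the floor on both arrays. On the other side of Sftpa1, Mat1a, a methionine adenosyltransferase gene, was higher at 0.78, with intensities of 11.0 and 18.8. Prxl2a and Tspan14, the next genes with a probe, were at 0.27 and -0.24. Thus 2 of the 4 measured genes within 8 places of Sftpa1 were at least 1.5-fold higher, Mat1a and Sftpd. Sftpd is a member already described as higher, so it adds nothing new to this count. Over all measured genes the share was 7.10%, and so few genes cannot show whether the region differs. Of the other soluble and membrane collectins, 3 of 5 had a probe and only Mbl2 was measured, under the floor in the wild-type pool and 1.31 in the Rosa26-Foxm1 pool (at least 1.31-fold higher).

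Sftpb and Sftpc were lower, by less than Sftpd was higher, and the size for Sftpc was close to that of Sftpa1. Sftpc, which encodes SP-C, a small membrane-spanning lipopeptide that marks type II cells, was 1228 in the wild-type pool and 859 in the Rosa26-Foxm1 pool. The difference was -0.52 ± 0.23, and 103 of 952 bright genes (10.8%) were at least as low. On the deposited values, 1225 and 935, it was -0.39. Sftpb, which encodes SP-B, the protein without which lamellar bodies do not form properly, was 1757 in the wild-type pool and 1438 in the Rosa26-Foxm1 pool, a difference of -0.29 ± 0.23. For Sftpb 287 bright genes (30.1%) were at least as low, and the bright genes' median was -0.10. With loess scaling the differences were -0.51 for Sftpb and -0.62 for Sftpc, which put Sftpc past 1.5-fold.

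Since both intensities of a gene share their arrays, the difference between 2 surfactant genes does not depend on a scale factor. It does change with quantile normalisation and loess, which depend on intensity. Sftpd minus Sftpc was 1.45 on the log2 scale, so the ratio of Sftpd to Sftpc was 2.74-fold higher in Rosa26-Foxm1 lung, and 2.92-fold on the deposited values. The error of such a difference, from the probe SD of brighter pairs, was 0.33. Sftpd minus Sftpb was 1.23, Sftpa1 minus Sftpc 1.02 and Sftpa1 minus Sftpb 0.80. These 4 collectin-against-hydrophobic differences lay between 0.80 and 1.45 with quantile normalisation, between 0.76 and 1.55 on the deposited values and between 0.77 and 1.63 with loess. As they share genes, they are not independent of each other. Within each kind, Sftpb minus Sftpc was 0.23, smaller than the error, and Sftpa1 minus Sftpd was -0.43, or -0.75 with loess.

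**Figure D2:**
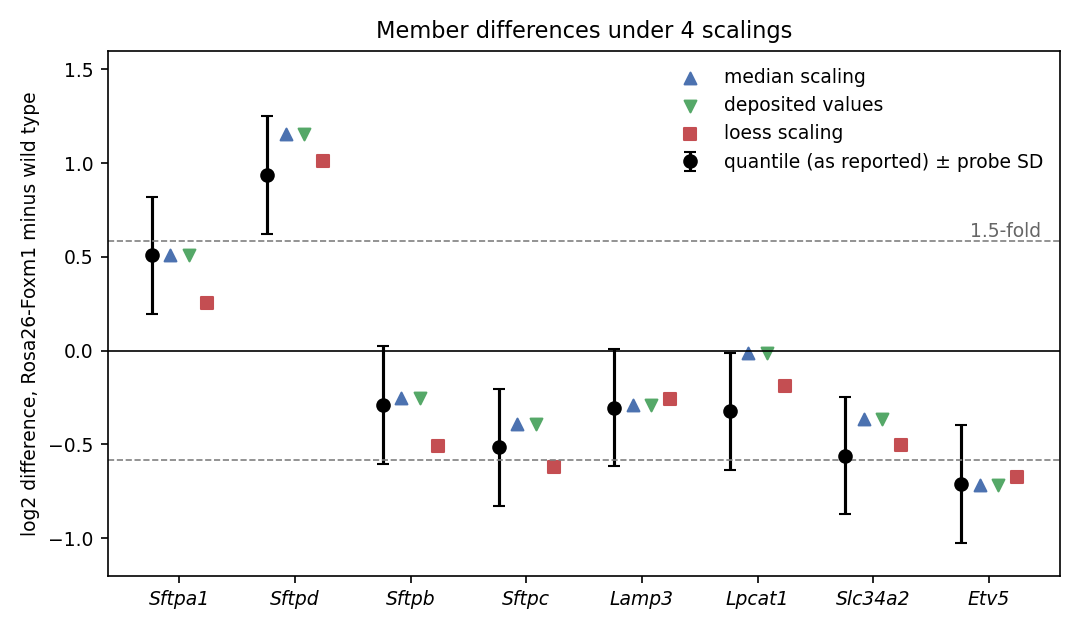
Log2 difference of the 8 members (Rosa26-Foxm1 minus wild type) with quantile normalisation (black circles, bars ± the probe SD of 0.31 over all pairs), median scaling, the deposited values and loess scaling. Dashed lines mark 1.5-fold. Sftpa1 and Sftpd are above 0 and the other genes below 0 under each of the 4 scalings, and Lpcat1 moves from -0.32 to -0.01 with median scaling.

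The promoters of surfactant genes are known to bind the lung factor NKX2-1 and forkhead factors of the FOXA class, and Foxm1 is itself a forkhead factor. The 250 bases before the RefSeq start are shown for Sftpa1, the member with a promoter sequence that was higher. They are also shown for 3 of the lower members, Sftpb, Lamp3 and Etv5. Only windows that held a match to the motifs below are shown. Those of the lower members Lpcat1 and Slc34a2 and a further Etv5 window held none, so the set shown cannot compare higher with lower members. The windows shown and the 3 motifs were picked after the members' directions were known. Capitals mark matches on either strand to the forkhead core TGTTTNC and to the NKX2-1 letters CTCAAG and CAAGTG. No position is shared by 2 matches in these windows.
Sftpa1, GRCm38.p6 chr14:41131538-41131787, plus strand: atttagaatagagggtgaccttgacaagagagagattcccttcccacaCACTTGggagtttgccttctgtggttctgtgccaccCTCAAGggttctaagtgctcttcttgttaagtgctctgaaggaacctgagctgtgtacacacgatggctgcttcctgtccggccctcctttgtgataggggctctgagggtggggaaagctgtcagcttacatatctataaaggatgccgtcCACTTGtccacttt
Sftpb, GRCm38.p6 chr6:72304360-72304609, plus strand: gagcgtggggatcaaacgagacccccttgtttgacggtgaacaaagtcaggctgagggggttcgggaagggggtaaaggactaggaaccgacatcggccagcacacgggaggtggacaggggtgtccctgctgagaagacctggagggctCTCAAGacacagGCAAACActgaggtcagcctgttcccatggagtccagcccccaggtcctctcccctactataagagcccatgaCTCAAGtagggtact
Lamp3, GRCm38.p6 chr16:19706366-19706615, minus strand: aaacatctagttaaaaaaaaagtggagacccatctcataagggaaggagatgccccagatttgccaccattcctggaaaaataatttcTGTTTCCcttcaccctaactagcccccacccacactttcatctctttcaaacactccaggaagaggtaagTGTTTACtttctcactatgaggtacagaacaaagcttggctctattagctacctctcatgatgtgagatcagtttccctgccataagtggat
Etv5, GRCm38.p6 chr16:22439571-22439820, minus strand: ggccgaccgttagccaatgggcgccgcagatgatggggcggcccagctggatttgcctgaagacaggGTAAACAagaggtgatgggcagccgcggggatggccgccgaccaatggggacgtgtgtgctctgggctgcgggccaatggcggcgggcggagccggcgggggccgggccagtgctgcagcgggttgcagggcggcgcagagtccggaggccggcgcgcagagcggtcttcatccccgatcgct

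The Sftpb window held 1 forkhead match, whose first base was at position -88 from the start, and 2 matches to CTCAAG, at -100 and -15. The Sftpa1 window held 1 match to CTCAAG, at -166, and 2 to CAAGTG, at -202 and -14, and none to the forkhead letters. Lamp3 held 2 forkhead matches and this Etv5 window 1, neither with the NKX2-1 letters. The other Etv5 window and the windows of Abca3, Lpcat1 and Slc34a2 held no match to any of the 3. Of 32851 RefSeq promoter windows of this length, 17.8% held the forkhead letters, 13.3% CTCAAG and 11.6% CAAGTG, so single matches are common. In all, 7 of the 10 members had at least 1 window in the table used, and Sftpc, Sftpd and Napsa did not. The matches are descriptions of the letters, and no binding was measured.

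SP-B and SP-C are released from their precursors by the proteases napsin A, from Napsa, and cathepsin H, from Ctsh. Ctsh, named for this role, was 223 in the wild-type pool and 260 in the Rosa26-Foxm1 pool (0.22), above 0 while Sftpb and Sftpc were below it. Of 17 measured genes for processing and folding of the precursors, 2 were at least 1.5-fold higher, none was lower and 15 lay between, with a median of 0.04 against -0.06 for all measured genes. The highest were the lysosomal protease Ctsl (116 against 192, 0.72), Sel1l, a subunit of the machinery that removes misfolded proteins from the endoplasmic reticulum (0.64), and Ern1, a sensor of unfolded protein (0.49, close to the floor). The lowest were Emc3, a membrane protein insertase subunit needed for surfactant in type II cells (-0.41), the ubiquitin ligase Nedd4 (at least 1.29-fold lower, its Rosa26-Foxm1 value being under the floor) and Itm2b, which shares the BRICHOS domain with the SP-C precursor (-0.26).

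Lamp3, a glycoprotein of the lamellar body membrane that is also found in mature dendritic cells, was 17.1 in the wild-type pool and 13.8 in the Rosa26-Foxm1 pool. The difference was -0.30 ± 0.23. A further probe, listed for Lamp3 and Ppid together and so assigned to neither, was at 0.33 (221 against 278), while Ppid, a cyclophilin gene, was at -0.04 by its own probe (26.6 against 25.9). Of 22 other measured genes of lamellar body formation, sorting and secretion, none was at least 1.5-fold higher (1 with median scaling), 2 were lower and 20 lay between, and the median of -0.08 became 0.02 with median scaling. The lower genes were Rab3d, a small GTPase of secretory granules (4.54 against 2.46, -0.89), and Hps3, a gene of lysosome-related organelle formation (4.70 against 3.08, -0.61). Hps1, from the same class and known for the lung disease of Hermansky-Pudlak syndrome, was at -0.53. At the other end Ap3s1, an adaptor subunit that sorts cargo to such organelles, was at 0.58, Vamp2 at 0.34 and Dtnbp1 at 0.31.

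Lpcat1 adds a saturated acyl chain to lysophosphatidylcholine, a step that makes the main lipid of surfactant. Its level was 541 in the wild-type pool and 432 in the Rosa26-Foxm1 pool, a difference of -0.32 ± 0.23. The deposited values, however, were 480.5 and 476, or -0.01, so the size of this difference changed with the normalisation. The median of the bright genes was -0.10 with it and 0.04 with median scaling. Of 28 other measured genes of phosphatidylcholine and phosphatidylglycerol synthesis and remodelling, 1 was at least 1.5-fold higher, 3 were lower and 24 lay between, with a median of -0.13. Lpcat4, an acyltransferase of the same class, was 2.26-fold lower, with 2.38 against 1.06 close to the floor. Cds2, which makes the precursor of phosphatidylglycerol, was lower by at least 2.30-fold, its Rosa26-Foxm1 value being under the floor, and the phosphatidate phosphatase gene Lpin1 was 1.57-fold lower. Pla2g1b, a secreted phospholipase, was 1.82-fold higher (0.86), followed by Plpp2 at 0.57 and Ptpmt1 at 0.46. Pcyt1a, the rate-limiting enzyme of phosphatidylcholine synthesis, was named for that role and was at 0.05.

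Fatty acids for surfactant lipid come from synthesis in the type II cell and from uptake. Of 24 measured genes of fatty acid synthesis and supply, 3 were at least 1.5-fold higher, 1 was lower and 20 lay between, and the median of -0.15 became 0.02 with median scaling. The higher genes were Fabp5, Slc27a1 and Plin2. Fabp5, a fatty acid binding protein of type II cells and macrophages, went from 13.6 to 45.2 (3.32-fold), the fatty acid transporter Slc27a1 from 3.15 to 7.75 (2.46-fold) and the lipid droplet protein Plin2 from 69.1 to 105 (1.52-fold). The lowest were the desaturase Fads2 (1.58-fold lower), the citrate lyase Acly (-0.43) and Scap, the escort of the lipid-regulating factors SREBP (-0.42). The fatty acid receptor Cd36 was at -0.41 (366 against 275) and the transporter Slc27a4 at -0.30, both named after their values were seen. Of the genes of synthesis, those named for their role were Srebf1 at -0.17, Fasn at -0.13 and Scd1 at -0.11. Others of the list went further in either direction, such as Elovl6 at -0.38, Scd2 at -0.29 and Elovl1 at 0.20.

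Slc34a2, the sodium-dependent phosphate transporter NaPi-IIb, which takes up phosphate at the surface of type II cells, was 330.4 in the wild-type pool and 224 in the Rosa26-Foxm1 pool. The difference was -0.56 ± 0.23 (1.47-fold lower), just inside the 1.5-fold size, and 76 of 952 bright genes (7.98%) were at least as low. On the deposited values of 307 and 239 it was -0.37. Of 14 measured genes of sodium, phosphate and water transport across the alveolar epithelium, none was at least 1.5-fold higher, 2 were lower and 12 lay between, with a median of -0.10. The lower genes were Scnn1g, a subunit of the epithelial sodium channel (19.1 against 10.1, -0.92), and Aqp1, a water channel of lung endothelium (750.3 against 464, -0.69). The kinase Sgk1, which activates that sodium channel, was at -0.51. Cldn4 (0.43), Cldn3 (0.35) and the chloride cotransporter Slc12a2 (0.33) were the highest.

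Etv5, an ETS factor that acts below Fgf and Ras signals and maintains type II cell identity, was the lowest member. It was 16.3 in the wild-type pool and 9.94 in the Rosa26-Foxm1 pool, a difference of -0.71 ± 0.38 (probe SD of dimmer pairs), or 1.64-fold lower. The deposited values, 16.3 and 9.93, gave -0.72, and over the scalings tried it stayed between -0.72 and -0.67. Of all measured genes 485 (5.10%) were at least as low. Of 12 measured genes of Fgf signalling upstream of Etv5 and its feedback, none was past 1.5-fold in either direction (1 lower with median scaling and 2 with the floor at the 25th percentile), 10 were below 0 and the median was -0.21. The Ras inhibitors Spred1 and Spred2 were at -0.57 and at least 1.37-fold lower (Spred2 under the floor in the Rosa26-Foxm1 pool), and the adaptor Grb2 at -0.42, while Spry2, another feedback inhibitor, was highest at 0.12. Etv1 and Etv4, close relatives of Etv5, were at -0.08 and 0.04.

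Of 26 measured transcription factor genes of type II differentiation and surfactant expression, none was at least 1.5-fold higher, 4 were lower and 22 lay between, with a median of -0.21. These counts rest on the brightest probe of each gene. Grhl2 was at -0.23 by that probe and 0.80 by its other one, and Cebpb at -0.14 and 0.13. The lowest were Epas1, a hypoxia-inducible factor of type II and endothelial cells (72.2 against 33.7, -1.10), the glucocorticoid receptor Nr3c1 (3.00 against 1.54, -0.96), through which steroids induce surfactant before birth, and Foxp2 (at least 1.77-fold lower, its Rosa26-Foxm1 value being under the floor). The remaining gene past 1.5-fold, and so named after its value was seen, was Stat3 at -0.66. The highest were Foxa2, a forkhead activator of surfactant genes (17.0 against 22.8, 0.43), Cebpd (0.35) and Tead1 (0.29, close to the floor). Nkx2-1, the main activator of surfactant genes, was close to the floor at 1.85 and 2.01 (0.12), and Cebpa, needed for type II maturation, was at -0.38 with 20.5 against 15.8.

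**Figure D3:**
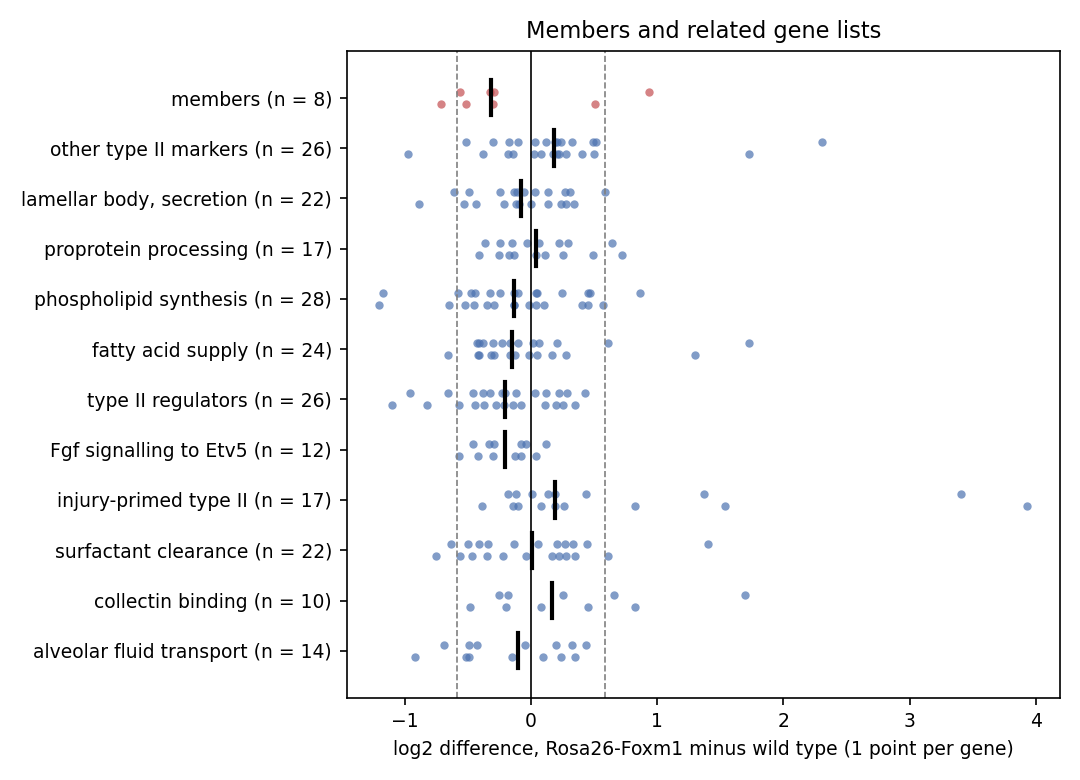
Log2 difference (Rosa26-Foxm1 minus wild type) of each measured gene of the members and of 11 lists of related genes, 1 point per gene, with the median of each list as a black bar and dashed lines at 1.5-fold. The members' median is -0.31, that of the other type II markers 0.18, and the points farthest to the right belong to the injury-primed list (Lcn2 at 3.93, Saa3 at 3.41).

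Type II cell markers outside the members were mostly above 0. Of 26 measured, 18 were above and 8 below, with a median of 0.18, 2 at least 1.5-fold higher, 1 lower and 23 between. Cxcl15, S100g and Muc1 were named after their values were seen, and all lie above the list's median. Others of the list lay below it, such as Lgi3 at 0.08, Dram1 at -0.14 and Fgfr2 at -0.30. The lung chemokine Cxcl15, which is made by lung epithelium, was 1348 in the wild-type pool and 1785 in the Rosa26-Foxm1 pool (0.41), the vitamin D-dependent calcium binding protein S100g 29.6 against 41.6 (0.49) and the mucin Muc1 at 0.50. The highest were the chitinase-like protein Chil1 (82.9 against 410, 4.95-fold), Fabp5 and the protease Ctsc (0.51), which macrophages also make. The lowest were complement C5 (Hc, -0.98, 2.26 against 1.15), Acoxl (-0.51) and Cebpa. The same arrays thus gave a median below 0 for the members and above 0 for these markers. The markers' median of 0.18 was, however, below that of the reference genes, 0.25. The list also holds genes that macrophages make, such as Fabp5 and Ctsc, and their part in the median was not tested.

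Of 17 measured genes of injured or primed type II cells, 5 were at least 1.5-fold higher, none was lower and 12 lay between, with a median of 0.19. Lcn2, the siderophore-binding lipocalin, was 65.4 in the wild-type pool and 999 in the Rosa26-Foxm1 pool (15.3-fold), the acute phase gene Saa3 10.4 against 110.4 (10.6-fold) and the galectin Lgals3 at least 2.90-fold higher, with the wild-type array under the floor. The other 2 were Lrg1 (2.59-fold) and Cd14 (0.82). The lowest genes were Krt7 (-0.39), Krt19 (-0.18) and Krt8 (-0.14), while Krt18, a further keratin of the list, was at 0.27. Macrophages and neutrophils also make Lcn2, Saa3, Lgals3, Lrg1 and Cd14.

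Surfactant is cleared by type II cells and by alveolar macrophages, whose capacity depends on GM-CSF, from Csf2, a cytokine made by type II and other cells. Csf2 was 1.89 in the wild-type pool and 4.99 in the Rosa26-Foxm1 pool, 2.64-fold higher and low on both arrays. Its receptor subunit Csf2ra was at -0.04, and Csf2rb and its close paralog Csf2rb2 were at 0.16 (1.52 against 1.70, near the floor) and 0.35 (6.27 against 7.99). Of 22 measured genes of uptake, breakdown and GM-CSF signalling, 2 were at least 1.5-fold higher, Csf2 and Plin2, 2 were lower, the scavenger receptor Marco (at least 1.68-fold lower, its Rosa26-Foxm1 value being under the floor) and the lipid exporter Abca1 (-0.64), and 18 lay between. The median was 0.01. Pparg, the macrophage regulator that GM-CSF induces, was at 0.45, its lipid exporter target Abcg1 at -0.35, and the lysosomal phospholipase Pla2g15, which degrades surfactant lipid in macrophages, at -0.56. Among 10 measured molecules reported to bind the collectins, 3 were at least 1.5-fold higher and none lower, namely the scavenger receptor Msr1 (3.24-fold), Cd14 and Ly96 (0.66), with a median of 0.17.

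Markers of other cells differed too, and their part in the members' differences was not tested. Epithelial markers of any kind had a median of -0.00 over 16 genes and 0.06 with median scaling, with 2 at least 1.5-fold higher (Cldn7 at 0.82, Tjp3 at 0.62), 1 lower (Prom1, at least 1.74-fold, its Rosa26-Foxm1 value being under the floor) and summed intensities of 1478 in the wild-type pool and 1382 in the Rosa26-Foxm1 pool. Epcam was at -0.09 and the cadherin Cdh1 at -0.31. Set against Epcam on the same arrays, Sftpd was at 1.03, Sftpa1 at 0.60, Sftpc at -0.42, Slc34a2 at -0.47 and Etv5 at -0.62, while Sftpb, Lamp3 and Lpcat1 were at -0.20, -0.21 and -0.23. Set against Cdh1 these became 1.25, 0.82, -0.20, -0.24 and -0.40, and Sftpb, Lamp3 and Lpcat1 were at 0.03, 0.01 and -0.01. Club cells, which also make SP-A, SP-B and SP-D, had a marker median of -0.34 over 11 genes, 3 of them at least 1.5-fold lower and none higher, with Scgb1a1 at -0.53. For type I cells 13 markers were measured, 5 at least 1.5-fold lower and none higher, and their median was -0.39 (1510 against 1261 summed). They did not move together, with 4 above 0 and 9 below. The lowest were Col4a3 (at least 2.12-fold, its Rosa26-Foxm1 value being under the floor), Timp3 (-0.90) and Cav1 (-0.83). The highest were Emp2 (0.25), Pdpn (0.24) and Cldn18 (0.24), and Ager was at -0.20.

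Endothelial markers were lower, with a median of -0.58 over 19 genes, 9 at least 1.5-fold lower and none higher, and summed intensities of 2779 against 1796. Macrophage markers had a median of 0.28 over 19 genes, 8 at least 1.5-fold higher and 3 lower (2083 against 2432 summed), and Cd68 had no probe of its own in the annotation used. The highest were Gpnmb (4.42), Mmp12 (3.46) and Trem2 (2.91) and the lowest Siglecf (-1.26), Krt79 (-0.98) and Marco. Fibroblast and smooth muscle markers had a median of -0.28 over 17 genes and neutrophil markers of -0.48 over 10. Lymphoid markers had a median of -0.07 over 15 genes, ciliated cell markers of 0.17 over 10 and goblet cell markers of 0.14 over 9. Single genes in these lists differed far more than the medians. Among lymphoid markers 4 were at least 1.5-fold higher, with Jchain 8.37-fold, and 1 was lower, Ms4a1 (-0.96). Among goblet markers 3 were higher, with Slc26a4 10.6-fold (1.33 against 14.1) and Pigr 5.34-fold, and none lower. Reference genes had a median of 0.25 over 9, with Actb at -0.07, Gapdh at 0.25 and Hprt at 0.36. Of the members' differences, those of Sftpd and Sftpa1 were above the reference genes' median and the other 6 below it.

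**Figure D4:**
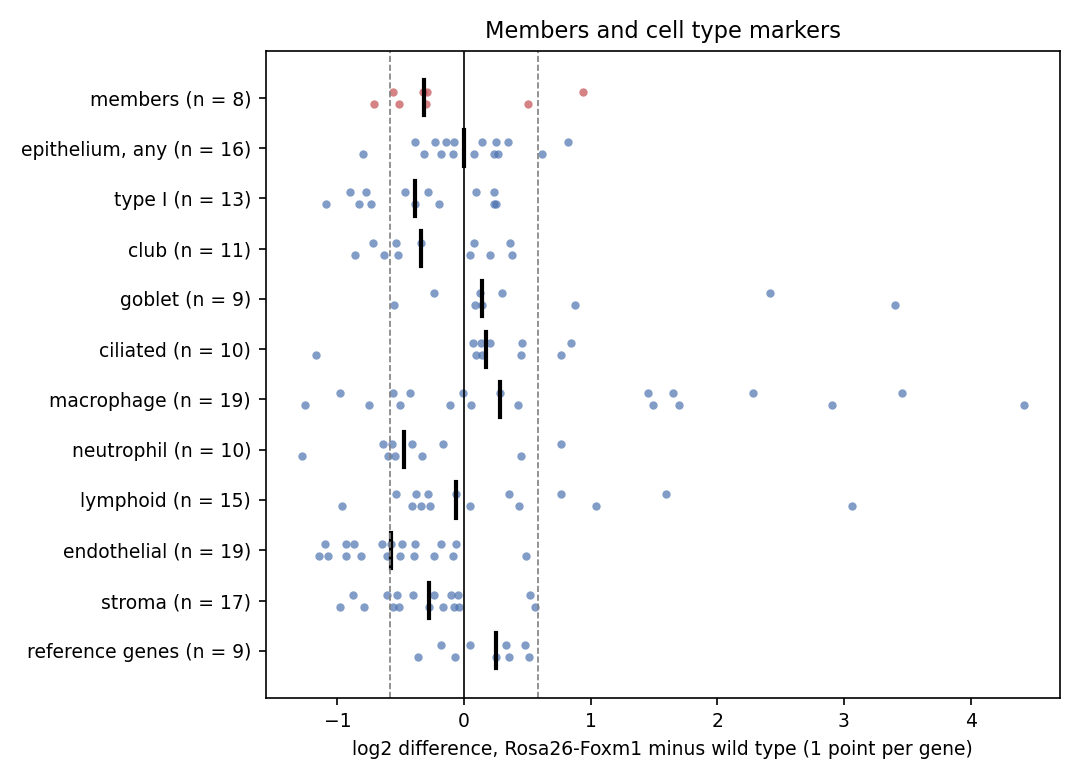
Log2 difference (Rosa26-Foxm1 minus wild type) of each measured gene of the members and of lists of cell type markers and reference genes, 1 point per gene, with medians as black bars and dashed lines at 1.5-fold. Endothelial points lie almost all left of 0 (median -0.58), macrophage points reach from -1.26 to 4.42, and the epithelial median is at -0.00.

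**Figure D5:**
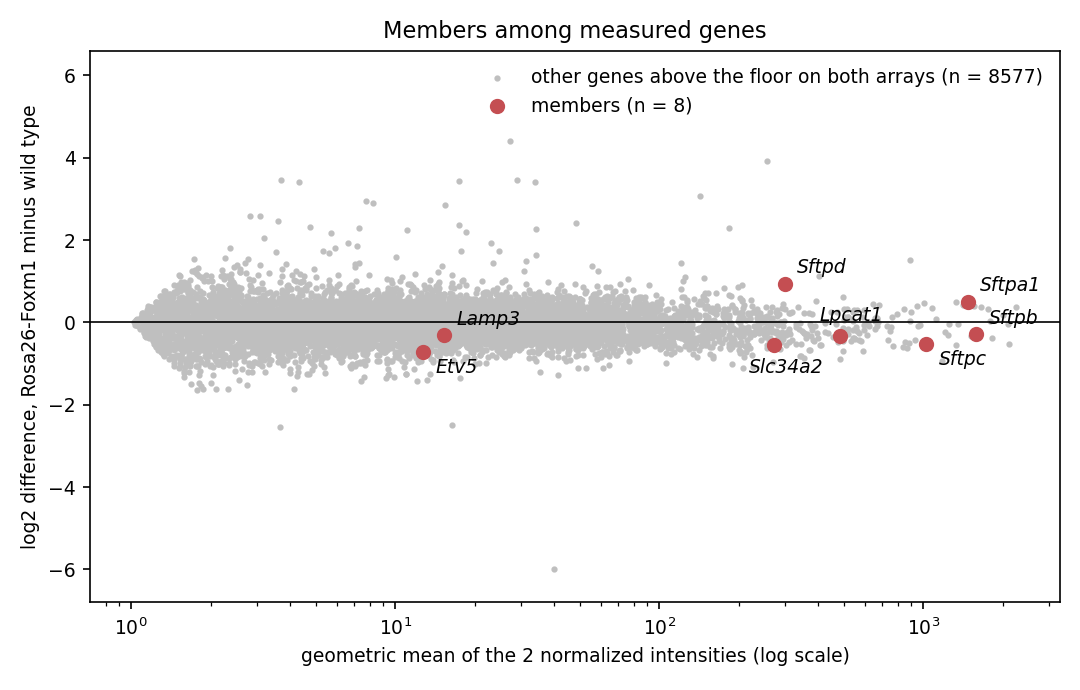
Log2 difference against the geometric mean of both normalised intensities (log scale) for genes above the floor on both arrays, with the 8 members in red. Sftpd stands above most genes of its brightness, at 0.94 against a 95th percentile of 0.54 for bright genes, and Etv5 is at -0.71, close to the 5th percentile of -0.72 of all measured genes.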

How the data were processed

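RNA of 2 pools was hybridised to 1 one-colour array each. Per the labels' protocols, total RNA was cleaned on columns with DNase and 1 µg was made into digoxigenin-labelled cRNA for chemiluminescent detection. The authors deposited linear probe intensities whose median was 1.00 on both arrays, so each column had been scaled. For image reading, background correction and scaling, tools were not given in the sources used here. No detection calls or counts came with the values, so the number of arrays limits the precision.

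Of 33012 probes, 14411 carried 1 gene, 247 several (not named) and 18354 none in the annotation used. Symbols were updated by gene ID to RefSeq (GRCm38.p6), which matched 13832 of 13840 genes. No build is named with the values, so coordinates are printed only with RefSeq promoter sequences.

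Values were quantile normalised, set to a floor at the 50th percentile and log2-transformed, and for each gene the probe of highest mean intensity was used (Python 3.11.15, numpy 2.4.6, pandas 2.3.3, statsmodels 0.14.6). A gene below the floor on 1 array has a bound, written as "at least". Among list genes with several measured probes, the sign differed between probes for Ap3m1, Cebpb and Grhl2. The probe SD is the root of the mean squared difference between 2 probes of a gene, scaled to a single probe. Quantile normalisation and the difference per probe were tested on simulated data, with known changes put into brighter probes only. The other scalings, the list counts and the promoter matches were not simulated. Other settings tried were loess (span 0.3) or median scaling, no scaling beyond the authors' own, a floor at the 25th or the 75th percentile or no floor, and the median over the probes of a gene.

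The members, the 24 lists and the alternatives were chosen with earlier results of these data known. Named genes are the members, up to 3 at each end of most lists of related genes and of some marker lists, fixed markers and reference genes. Others were named for their role, by position or as past 1.5-fold. A few further genes, such as Cxcl15 and Cd36, fit none of these kinds. Genes named for role, position or size and the further genes were picked after their values were seen. With 1 array per group no comparison was tested and no p-value is given. Genes with a pattern like a member's were not sought, because over 2 arrays a pattern is a single difference.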

Additional observations from a re-analysis of the deposited data

How the results depend on the processing

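No member changed sign under median scaling, the deposited values or loess. The first 2 are nearly the same check, since the deposited medians of the arrays were almost equal. The other floors and the median over probes could not change a member. Each has 1 probe, which lay above every floor tried on both arrays. Over these settings the difference was 0.94 to 1.16 for Sftpd, 0.26 to 0.51 for Sftpa1, -0.51 to -0.25 for Sftpb, -0.62 to -0.39 for Sftpc, -0.30 to -0.26 for Lamp3, -0.56 to -0.36 for Slc34a2 and -0.72 to -0.67 for Etv5. A value was counted as moved when it shifted by more than the probe SD of its brightness class, or of all pairs for lists. That yardstick was chosen after seeing the data, in place of the SD of all pairs for members and for differences between surfactant genes. It is stricter for the 7 brighter members and looser for Etv5 and for those differences. By the brightness class SD of 0.23 Sftpa1 moved with loess, to 0.26. Lpcat1 moved by it with median scaling, to -0.0141, and on the deposited values, to -0.0143. By the SD of all pairs, 0.31, neither would have moved, while Sftpa1 minus Sftpd would have moved with loess, from -0.43 to -0.75. By the SD of 0.26 of pairs brighter than the 95th percentile, Sftpa1 would not have moved. A count was taken as moved past 1.5 times.

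With loess 2 members were at least 1.5-fold lower. In the lists, loess gave 1 lamellar body gene higher and 1 lower, 2 phospholipid synthesis genes higher, 1 neutrophil marker lower and 1 stromal marker higher. Median scaling and the deposited values each gave 1 lamellar body gene, 1 stromal marker and 1 reference gene higher, and 1 Fgf signalling, 1 fluid transport and 1 goblet gene lower. With the floor at the 25th percentile 1361 of all genes were higher and 1548 lower, and without a floor 1827 and 2000. Both of these settings gave 1 collectin and 1 lamellar body gene, 6 goblet and 2 neutrophil markers higher, and 1 processing gene, 2 Fgf signalling genes and 2 lymphoid markers lower. Without a floor 2 regulators were also higher. With the floor at the 75th percentile 238 of all genes were higher and 289 lower, with 1 processing, 1 clearance and 1 collectin-binding gene and 0 ciliated and 0 neutrophil markers higher. At that floor 2 regulators and 2 stromal markers were lower, and 0 genes of the lamellar body, phospholipid synthesis, other type II, clearance, ciliated, lymphoid and epithelial lists. The goblet median was 0.65 and 0.61 with the floor at the 25th and 75th percentile and 0.77 without one.

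Of 322 list counts 46 moved, and of 160 list medians 3 moved and 13 had another sign than the value reported. Changes of sign fell on the medians of the lamellar body, processing, fatty acid, clearance, fluid transport, lymphoid and epithelial lists. The cause was not tested. No paired analysis was possible because each group has 1 array. Values close to the floor are the least certain, and no setting shows the difference between mice.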

Other observations

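Among the genes next to Sftpc on chromosome 14, 12 of 16 were measured, with a median log2 difference of -0.15, none at least 1.5-fold higher and 3 lower. The lowest was Slc39a14, a zinc and iron transporter 5 places away, at 39.1 in the wild-type pool and 6.92 in the Rosa26-Foxm1 pool (-2.50). The others were Hr (-1.05, 3.20 against 1.55) and Dmtn (-0.61). Lgi3, the immediate neighbour and a type II cell marker, was at 0.08. Around Sftpb on chromosome 6, 12 of 16 genes were measured, with a median of -0.03, and Reep1 (-0.84) was the 1 gene past 1.5-fold. Over all measured genes 8.46% were at least 1.5-fold lower. These neighbouring genes were chosen by position only, and each rests on 1 array per group.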
